A study of Mus musculus with 6 samples.

Results

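The genes described here are 9 liver genes that encode hepatokines or other hormones released by the liver: Ahsg, Fetub, Lect2, Angptl8, Gdf15, Agt, Inhba, Inhbe and Thpo. They were listed by name, with no threshold on any value but with earlier results of these data known, and they are 9 of the 47232 gene names used and 9 of the 18619 genes tested. Expression was measured by RNA-Seq in frozen, unfixed liver of 3 laboratory mice and 3 wild mice, 1 library a mouse. The laboratory mice were adult C57BL6 males, an inbred strain, and were killed on arrival from the breeder. The wild mice were adults trapped at a pair of sites (wild mice 1 and 2 at one, wild mouse 3 at the other) and then held for some months under standard husbandry and natural light. Only wild mouse 1 was a male among the wild mice, the other two being females, so sex and housing both differed with origin. Feeding state and time of day at death are not given in the sources used here. No mouse carried a transgene or received a drug as far as the labels state. FPKM is a fragment count corrected for the length of the transcript and the size of the library, so levels of different genes can be compared per length. zFPKM is a score made from it, in which log2 FPKM is centred on the mode of all genes in 1 mouse and expressed in SDs of that mouse's distribution.

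Hepatokines are proteins that hepatocytes secrete into blood and that act on other organs. Ahsg (fetuin-A) and Fetub (fetuin-B) are plasma proteins of the cystatin superfamily, of which fetuin-A binds mineral and inhibits insulin receptor signalling, and fetuin-B inhibits the egg protease ovastacin. Lect2 is a chemotactic factor, Angptl8 is induced by feeding and insulin and acts on lipoprotein lipase, and Agt is the precursor of the angiotensins. Inhba and Inhbe encode activin beta chains, Gdf15 is a stress-induced hormone that reduces food intake through a brainstem receptor, and Thpo drives platelet production. Most are made mainly by hepatocytes in the adult, whereas Inhba and Gdf15 are made by many cell types.

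Upstream sequences are shown for Lect2 and Angptl8, the members called in the comparison below, and for Agt, the only member whose window held 2 of the searched motifs. They come from RefSeq on GRCm38.p6, are the 250 bases before the transcription start, and are written 5′ to 3′ on the gene's strand, with motif matches in capitals.

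Lect2: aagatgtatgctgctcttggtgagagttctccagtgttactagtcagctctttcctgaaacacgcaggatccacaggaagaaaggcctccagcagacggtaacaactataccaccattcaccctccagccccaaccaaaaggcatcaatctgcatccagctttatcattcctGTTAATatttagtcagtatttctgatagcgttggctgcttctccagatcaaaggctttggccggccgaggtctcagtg

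Angptl8: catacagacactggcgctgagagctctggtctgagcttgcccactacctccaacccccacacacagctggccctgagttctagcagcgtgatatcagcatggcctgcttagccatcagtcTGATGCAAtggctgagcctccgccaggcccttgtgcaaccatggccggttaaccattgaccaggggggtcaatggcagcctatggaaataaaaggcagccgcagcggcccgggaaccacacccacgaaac

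Agt: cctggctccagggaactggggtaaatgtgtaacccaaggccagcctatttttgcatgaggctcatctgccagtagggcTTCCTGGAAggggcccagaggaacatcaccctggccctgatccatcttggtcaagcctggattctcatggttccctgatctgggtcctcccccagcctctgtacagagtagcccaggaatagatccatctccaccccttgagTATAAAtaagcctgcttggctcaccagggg

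The Lect2 window is chr13:56548539-56548788 on the minus strand, and its capitals mark GTTAAT, the half-site of the hepatocyte factor HNF1, 78 bases before the start. Its last bases lie inside a longer Lect2 transcript of RefSeq. The Angptl8 window is chr9:21835260-21835509 on the plus strand, inside an intron of Dock6, a gene of the opposite strand. Its capitals mark TGATGCAA, the composite element read by C/EBP and ATF factors, 130 bases before the start. The Agt window is chr8:124569707-124569956 on the minus strand, and its capitals mark TTCCTGGAA, a match to the STAT element TTCNNNGAA, 172 bases before the start and a TATA box (TATAAA) 30 bases before it. Both strands of all promoter windows in the RefSeq table were searched. TGATGCAA was the rarest of the motifs, at 0.791% of 32851 windows, and 2 of the 9 genes held it, Angptl8 and Inhbe. The Inhbe match lay on the opposite strand (TTGCATCA), 181 bases before the start in RefSeq, but GENCODE places the start of Inhbe further upstream and this window within its untranslated region. GTTAAT was in 6.43% of windows and in Lect2 and Gdf15, TTCNNNGAA in 7.02% and in Agt, TATAAA in 12.4% and in Fetub, Agt and Inhba, and the E-box CACGTG in 6.02% and in Gdf15. These shares are per window, whereas the members are counted per gene, and Fetub, Gdf15 and Thpo have 2 windows each. The Gdf15 E-box was in the window of its second listed start, which lies inside the Gdf15 gene body. A match is a description of the letters and not of binding.

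The 9 genes lie on 5 chromosomes of GRCm38. Ahsg (chr16:22892015-22899451) and Fetub (chr16:22918382-22939768) are neighbours in the same orientation, 18930 bases apart, and the cystatin superfamily genes Hrg, Kng2 and Kng1 follow within 118451 bases of Fetub. Thpo (chr16:20724454-20734511) is on the same chromosome, Lect2 (chr13:56529734-56548559) and Inhba (chr13:16004256-16031609) are on chromosome 13, Gdf15 (chr8:70629393-70632470) and Agt (chr8:124556587-124569706) on chromosome 8, Angptl8 (chr9:21835510-21837347) on chromosome 9 and Inhbe (chr10:127349402-127351848) on chromosome 10. Gene bodies of Ahsg, Lect2, Angptl8, Inhba and Thpo overlap another annotated gene. These neighbours (Gm30505, Fbxl21, Dock6, B230303A05Rik and Chrd) were at most at 8.58 FPKM (Dock6 in laboratory mouse 3). Chrd reached 4.70 FPKM, beside 5.64 to 13.6 FPKM for Thpo, and its part in the Thpo values was not tested.

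All libraries had the RNA of liver. The 7 hepatocyte markers used summed to between 26072 and 41606 FPKM, led by Apoa1, the main protein of high-density lipoprotein. Of the markers of fat, Plin1, Lep and Retn were listed at 0 in every mouse, as were Prss1, Ins1 and Ins2 of pancreas. The other fat markers, Cfd and Adipoq, reached at most 0.794 and 0.0499 FPKM. Of the other pancreas markers, Cpa1 and Pnlip reached at most 0.0371 and 0.0639 FPKM, and Cela2a was at 0.716 to 1.68 FPKM over the 6 mice. The 6 Kupffer cell markers summed to 28.0 to 36.0 FPKM in the laboratory mice and to 11.5, 42.1 and 109.6 FPKM in wild mice 1, 2 and 3, and their part in the differences below was not tested. Red cell and platelet markers summed to 1341 to 5136 FPKM in laboratory and 724 to 1582 FPKM in wild mice. By the test used below 5 of 6 were higher in laboratory mice, beside 7.17% of all genes, and these were the red cell genes Hba-a1, Hba-a2, Hbb-bs, Hbb-bt and Alas2. Itga2b, the only platelet marker used, was at 0.598 to 1.58 FPKM with overlap and was not called (limma adjusted p = 0.463). All 11 female-biased liver genes were called lower in laboratory mice, beside 7.28% of all genes. Sult3a1, a sulfotransferase, was at 0 in the 3 laboratory mice, 0.438 FPKM in the wild male and 2076 and 1932 FPKM in the wild females. Others were high in the wild male too, such as Cyp2b9 (29.7 FPKM, at 0 in laboratory mice) and Cyp17a1 (96.9 FPKM, 1.78 to 4.93 in laboratory mice). Of 9 male-biased genes tested, 6 were called higher and 1 lower in laboratory mice, beside 7.17% and 7.28% of all genes. Serpina1e was at 4510 to 7781 FPKM in laboratory mice and 383 FPKM in the wild male. The parts of sex and origin were not tested. Laboratory mouse 3 and wild mouse 1 stood apart in the width or mode of their zFPKM distribution (SD of 2.51 in laboratory mouse 3, mode of 2.51 in wild mouse 1), so results are also given without them where that matters.

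The members spanned a mean FPKM ratio of 3333 between the highest, Ahsg, and the lowest, Inhba. Ahsg ranked between the 7th and the 19th most abundant gene name in each mouse, Fetub between the 36th and the 112th, and Agt between the 125th and the 221st. In both groups the order began with Ahsg, Fetub and Agt, and no mouse of one overlapped with the next in FPKM within a group. Lect2 and Angptl8 came next, and their order was not the same in the 2 groups. In laboratory mice their ranges overlapped, with Angptl8 above Lect2 in laboratory mice 1 and 3 and below it in mouse 2. In the wild mice the Lect2 range lay wholly above that of Angptl8. Thpo, Inhbe, Gdf15 and Inhba were the low members, with every value under 15 FPKM. In the laboratory mice Thpo lay above Inhbe and Inhbe above Gdf15 without overlap, whereas Gdf15 and Inhba overlapped. In the wild mice Thpo, Inhbe and Gdf15 overlapped, and Inhba was the lowest member in every wild mouse.

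**Figure D1:**
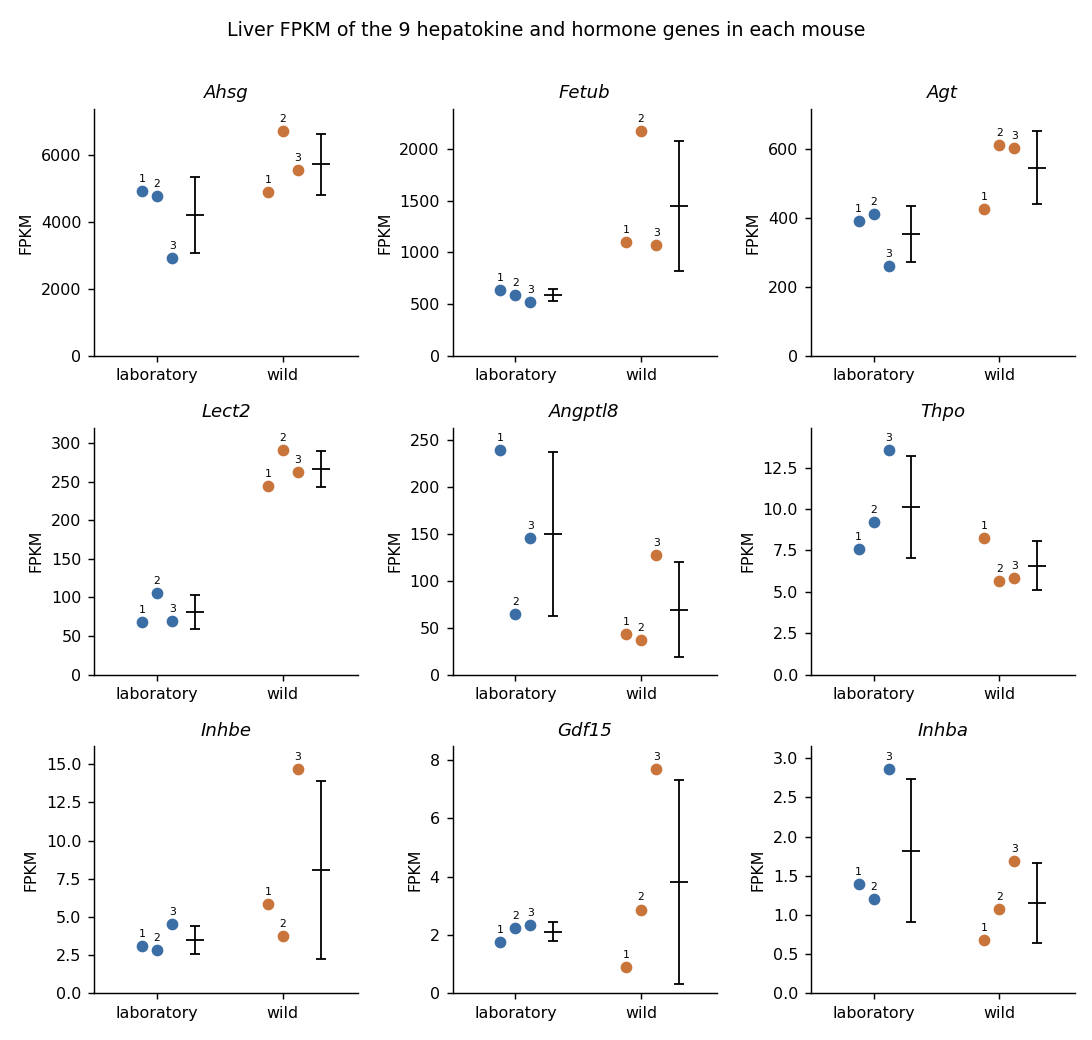
Each panel shows the FPKM of 1 gene on a linear axis from 0, with 1 numbered point a mouse and a bar for mean ± SD of the 3 laboratory (blue) and 3 wild (orange) mice. Lect2, Fetub and Agt do not overlap between the groups, and wild mouse 3 stands above the other wild mice in Angptl8, Inhbe and Gdf15.

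The comparison of laboratory with wild mice asked which of the 9 genes differed between inbred and wild livers. On the zFPKM scale, limma with Benjamini-Hochberg adjustment over all 18619 genes called 2 of the 9 members at an adjusted p under 0.05, beside 14.4% of all genes tested. Lect2 was lower in the laboratory mice, as were 7.28% of all genes, and Angptl8 was higher, as were 7.17%. The median zFPKM difference (laboratory minus wild) of the members was 0.10, and that of all tested genes 0.00500. For 4 members (Ahsg, Lect2, Inhba and Thpo) the groups did not overlap in zFPKM, as for 28.3% of all tested genes. The FPKM scale gave another picture, because FPKM were lower in laboratory mice for most genes, with a median difference of -0.47 in log2(FPKM + 0.1). On it 3 members did not overlap (Fetub, Lect2 and Agt, each higher in every wild mouse), beside 55.8% of all genes without overlap and 43.7% higher in every wild mouse. Limma on log2(FPKM + 0.1) called Fetub and Lect2, both lower in laboratory mice, with 46.1% of all genes called and 37.9% called lower. With the medians of the 6 mice set equal on that scale, a choice made after seeing the data, Lect2 was called lower and Angptl8, Inhba and Thpo higher, with 47.4% of all genes called. Lect2 was the only member called on all 3 scales. With the medians of zFPKM set equal, however, Lect2 was not called (limma adjusted p = 0.154). Inhba and Thpo were then called (limma adjusted p = 0.0309 and 0.0266), among 5270 of 18619 genes.

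**Figure D2:**
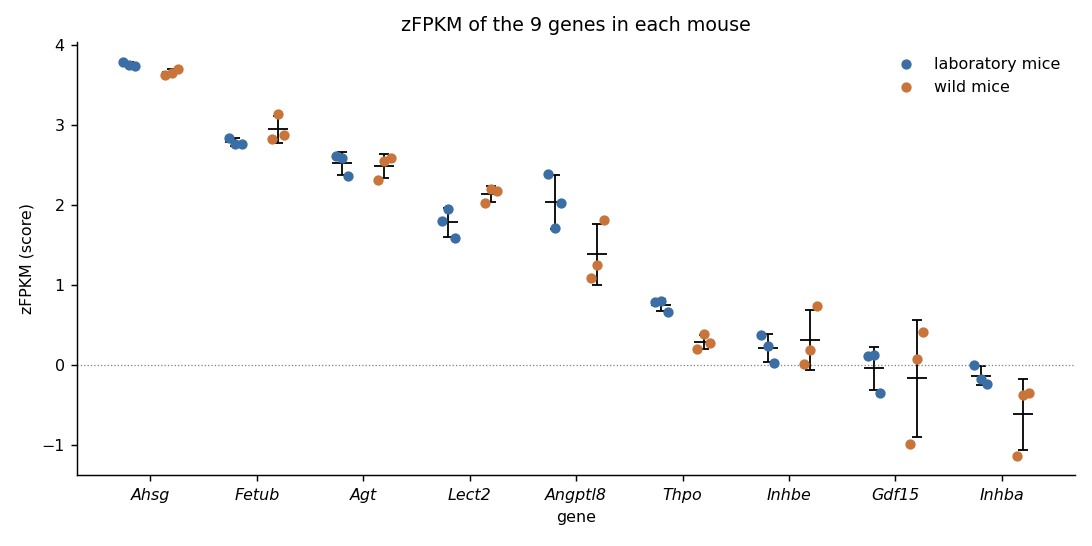
The zFPKM score of each of the 9 genes is plotted for every laboratory (blue) and wild (orange) mouse, with bars for mean ± SD (n = 3 a group) and a dotted line at the mode of a mouse's distribution. The groups separate in Ahsg, Lect2, Thpo and Inhba and overlap in the other 5 genes.

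Ahsg, the gene of fetuin-A, was expressed at 4929, 4768 and 2905 FPKM in laboratory mice 1, 2 and 3 and at 4878, 6697 and 5551 FPKM in the wild mice. The groups overlapped, since laboratory mouse 1 lay above wild mouse 1, and laboratory mouse 3 was the lowest. The means were 4201 ± 1125 and 5709 ± 919 FPKM (SD, n = 3 each), which was 1.36-fold higher in wild mice (two-sided exact permutation test on log2 FPKM, p = 0.2, where 3 mice against 3 cannot go below 0.1). On the zFPKM scale the direction was the other way, 3.74 to 3.79 in laboratory and 3.62 to 3.69 in wild mice, a difference of 0.10 (SE 0.0821, limma adjusted p = 0.483). In bulk liver, fewer cells of a type and less RNA per cell cannot be told apart, for this gene and for those that follow.

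Fetub, the gene of fetuin-B, was expressed at 639, 592 and 523 FPKM in the laboratory mice and at 1098, 2169 and 1070 FPKM in the wild mice. All wild mice were above all laboratory mice, with the wild female 2 at about the level of the other wild mice added together. The means of 585 ± 58.0 and 1446 ± 627 FPKM differed 2.47-fold (log2 difference of -1.23, laboratory minus wild, exact permutation p = 0.1, the smallest possible). In zFPKM the groups overlapped and the difference was -0.16 (SE 0.0946, limma adjusted p = 0.295). With sex as a covariate it was -0.038, in a fit that sets the laboratory mice against wild mouse 1, the only wild male. The call for Fetub rested on the scale and on the normalization between mice. Limma on log2(FPKM + 0.1) gave an adjusted p of 0.0119, and 0.339 with equal medians. Quantile normalization of zFPKM gave a difference of -0.31 (limma adjusted p = 0.0329).

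A ratio of members within 1 mouse does not depend on that mouse's scaling, and the difference fitted from transcript length alone was of like size for these genes (log2, laboratory minus wild, -0.52 for Ahsg, -0.53 for Fetub, -0.57 for Agt and -0.36 for Lect2). Fetub stood at 13.0%, 12.4% and 18.0% of the Ahsg FPKM in the laboratory mice and at 22.5%, 32.4% and 19.3% in the wild mice. The groups did not overlap, although laboratory mouse 3 was close to wild mouse 3, and the means were 14.5% ± 3.09 and 24.7% ± 6.83 (exact permutation p = 0.1, n = 3 each). Lect2 was 1.38%, 2.22% and 2.38% of Ahsg in laboratory and 5.02%, 4.34% and 4.74% in wild mice, again without overlap (means of 1.99% ± 0.536 and 4.70% ± 0.340, exact permutation p = 0.1, n = 3 each). Agt stayed nearer to Ahsg, at 7.95% to 9.0% in laboratory and 8.72% to 10.9% in wild mice, with overlap.

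**Figure D3:**
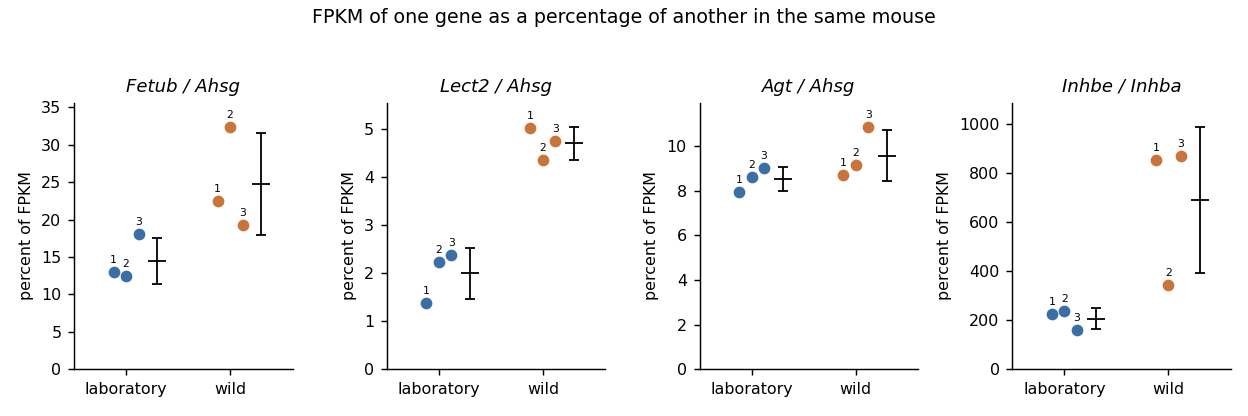
The FPKM of Fetub, Lect2 and Agt as a percentage of the Ahsg FPKM, and of Inhbe as a percentage of the Inhba FPKM, in the same mouse (1 numbered point a mouse, bars are mean ± SD, n = 3 a group, linear axes from 0). Fetub, Lect2 and Inhbe are higher in every wild mouse in these ratios, and Agt overlaps.

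The fetuin neighbours of the cystatin superfamily were, like the fetuins, not called in zFPKM. Of 9 genes in that list, 4 passed the filter on low values, none was called by limma (1 had an unadjusted p under 0.05), and their median difference was -0.020. In FPKM, Hrg, which encodes histidine-rich glycoprotein, was at 334, 384 and 232 in laboratory and 634, 746 and 629 in wild mice, and Kng2, a second kininogen gene, at 138, 159 and 153 and at 203, 341 and 290. Neither overlapped between the groups, both being higher in every wild mouse, as were 43.7% of all tested genes. Kng1, the kininogen gene and the most abundant of the list, was at 1583, 1649 and 1418 FPKM in laboratory and 1206, 2125 and 1746 FPKM in wild mice, with overlap. The cystatin and stefin genes Cst6, Stfa1, Stfa2 and Stfa3 were listed at 0 in every mouse.

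Lect2 showed the largest fold difference in FPKM among the members. It was expressed at 68.0, 106 and 69.0 FPKM in the laboratory mice and at 245, 291 and 263 FPKM in the wild mice. Every wild mouse, of either sex and from either site, had more than 2 times the FPKM of the highest laboratory mouse. The means were 81.0 ± 21.6 and 266 ± 23.2 FPKM (SD, n = 3 each), 3.29-fold higher in wild mice (log2 difference of -1.75, exact permutation p = 0.1). In zFPKM the laboratory mice were at 1.80, 1.95 and 1.59 and the wild mice at 2.02, 2.20 and 2.17, a difference of -0.35 (SE 0.116, limma adjusted p = 0.0219). The direction held in all 19 alternatives and the call in 10 of them, with adjusted p from 0.000449 to 0.450. The call was lost without the limma trend (adjusted p = 0.347), with equal medians of zFPKM (0.154), with a floor of -5 (0.0592) and without the filter (0.450). The same held without laboratory mouse 1 or 3 or wild mouse 2 or 3 (0.0791, 0.067, 0.175 and 0.170). The call was also lost with sex as a covariate (-0.24), a fit that sets the laboratory mice against wild mouse 1 alone.

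A further list held candidate receptors of LECT2, proteases that fetuin-B inhibits and 2 genes of neither kind, Ambp and Insr. Of its 9 genes 6 were tested, with a median zFPKM difference of -0.18, and limma called none (1 had an unadjusted p under 0.05). The list was led by Ambp, the gene of another plasma protease inhibitor, at 1685, 1829 and 1041 FPKM in laboratory and 2287, 2461 and 2401 FPKM in wild mice. Astl, which encodes ovastacin, was listed at 0 in every mouse but wild mouse 3 (0.0195 FPKM), and the meprin gene Mep1a at 0 in all.

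Angptl8 varied most among the abundant members. It was expressed at 239, 64.3 and 146 FPKM in laboratory mice 1, 2 and 3 and at 42.9, 37.1 and 127 FPKM in the wild mice. The groups overlapped, since wild mouse 3 had nearly 2 times the FPKM of laboratory mouse 2, and each group spanned more than 3-fold (3.72 in laboratory, 3.42 in wild mice). The mean was 2.17-fold higher in laboratory mice (150 ± 87.4 and 69.1 ± 50.3 FPKM, log2 difference 1.15, exact permutation p = 0.2, n = 3 each). In zFPKM the difference was 0.66, with an SE of 0.124 and a limma adjusted p of 5.56e-06. That SE is moderated by genes of like abundance, and the gene's own SDs were 0.337 in laboratory and 0.380 in wild mice. Without the limma trend the SE was 0.274 and the adjusted p 0.222, with the same difference. The adjusted p was 0.0923 without wild mouse 1 and 0.209 without laboratory mouse 3 and wild mouse 1 (difference 0.52). The direction, higher in laboratory mice, held in all 19 alternatives and the call in 10 of them.

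The pathway around ANGPTL8 controls the hydrolysis of circulating triglyceride. Of 10 genes tested in that list, 3 were called higher in laboratory mice and none lower, beside 7.17% and 7.28% of all genes. The median zFPKM difference was 0.35. Apoc3, an inhibitor of lipoprotein lipase and the most abundant gene of the list, was at 14411, 11364 and 13185 FPKM in laboratory and 5392, 6873 and 5199 FPKM in wild mice (zFPKM difference 0.68, limma adjusted p = 1.00e-15). Lmf1, which matures the lipases in the endoplasmic reticulum, was at 48.7, 46.1 and 41.9 FPKM and 23.6, 22.9 and 21.4 FPKM (difference 0.60, limma adjusted p = 0.000894). Apoc3 was called in 14 and Lmf1 in 17 of the 19 alternatives.

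Genes of the response to insulin and feeding are shown beside Angptl8 because it is itself one of them. Of 15 tested, 2 were called higher and 1 lower in laboratory mice, beside 7.17% and 7.28% of all genes. The median zFPKM difference was -0.082. Mlxipl, which encodes the carbohydrate-responsive factor ChREBP, was at 50.7, 84.8 and 241 FPKM and 28.7, 24.7 and 87.4 FPKM (difference 0.75, limma adjusted p = 3.70e-07). Igfbp1, which insulin represses, was lower in laboratory mice, at 5.44, 20.9 and 14.3 FPKM beside 74.1, 172 and 29.0 FPKM (difference -0.64, limma adjusted p = 0.000418). The groups overlapped in Mlxipl FPKM. Mlxipl was called in 11 and Igfbp1 in 8 of the 19 alternatives. Among the wild mice, wild mouse 3 was the highest in Angptl8 and Mlxipl and the lowest in Igfbp1. In the laboratory mice the order was another, with Angptl8 highest in mouse 1 (239 FPKM), where Mlxipl was lowest (50.7 FPKM). The lipogenic desaturase Scd1, the most abundant of the list, did not share that pattern, with 588 to 1290 FPKM in laboratory and 976 to 1188 FPKM in wild mice.

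**Figure D4:**
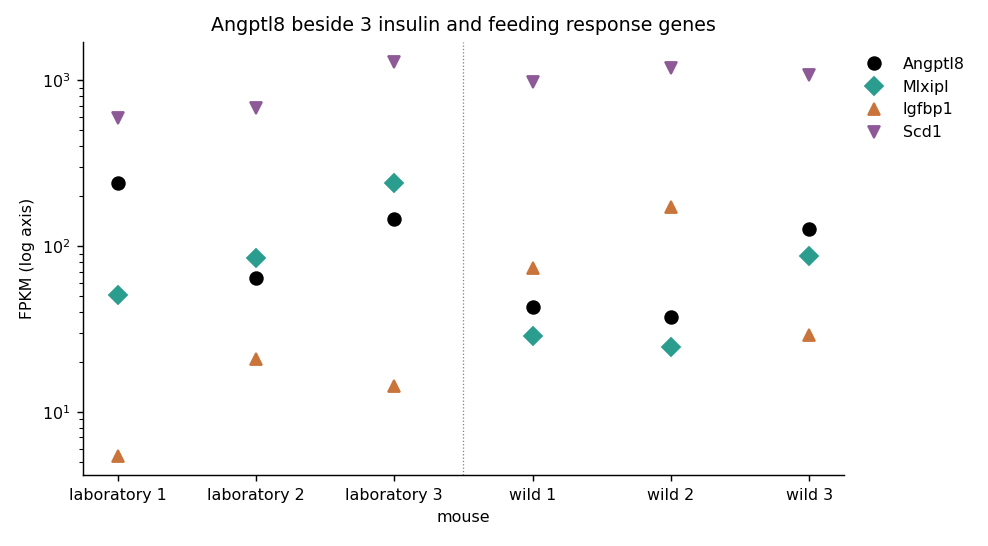
FPKM on a log axis of Angptl8 and of 3 genes of the insulin and feeding list in each of the 6 mice, 1 symbol a gene. In wild mouse 3 Angptl8 (127 FPKM) and Mlxipl (87.4 FPKM) are above the other wild mice, and Igfbp1 (29.0 FPKM) is below them.

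Agt, the angiotensinogen gene, was expressed at 392, 411 and 262 FPKM in the laboratory mice and at 426, 612 and 603 FPKM in the wild mice. All wild mice were above all laboratory mice, but laboratory mouse 2 and wild mouse 1 were nearly level. The means were 355 ± 81.2 and 547 ± 105 FPKM, 1.54-fold higher in wild mice (log2 difference of -0.63, exact permutation p = 0.1, n = 3 each). That difference was close to the median of all genes on the log2 scale, and in zFPKM it was 0.036 (SE 0.102, limma adjusted p = 0.874) with overlapping groups. No alternative called it.

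Of 10 tested genes that process or receive angiotensins, 3 were called lower in laboratory mice and none higher. Of all genes, 7.28% were called lower and 7.17% higher. The list's median zFPKM difference was -0.41. Ctsd, a lysosomal aspartic protease and the most abundant of the list, was at 53.3, 56.4 and 53.0 FPKM in laboratory and 190, 267 and 251 FPKM in wild mice (difference -0.47, limma adjusted p = 0.00145). Anpep, an aminopeptidase that trims angiotensin peptides, was at 9.35, 11.2 and 6.36 FPKM and 37.5, 47.2 and 51.7 FPKM (difference -0.58, limma adjusted p = 0.00394). Ctsd was called in 14 and Anpep in 12 of the 19 alternatives. Ren2, a renin gene that some mouse strains carry and others lack, was at 0 in the 3 laboratory mice and at 0.0883, 0.156 and 0.231 FPKM in the wild mice. Reads of its paralogue cannot be separated with certainty here. The receptor genes Agtr1b and Agtr2 were listed at 0 in every mouse.

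Inhba and Inhbe encode chains of activin dimers, and neither was called. Inhba was expressed at 1.40, 1.20 and 2.87 FPKM in the laboratory mice and at 0.685, 1.08 and 1.69 FPKM in the wild mice, with overlap. Its mean was 1.58-fold higher in laboratory mice (1.82 ± 0.911 and 1.15 ± 0.506 FPKM, exact permutation p = 0.4, n = 3 each). In zFPKM every laboratory mouse was above every wild mouse, with a difference of 0.48 (SE 0.305, limma adjusted p = 0.327). Without wild mouse 1 the difference was 0.23, and with sex as a covariate, against wild mouse 1 alone, it was 0.998. Inhbe was expressed at 3.11, 2.84 and 4.53 FPKM in laboratory and at 5.83, 3.73 and 14.7 FPKM in wild mice. Wild mouse 3 stood far above every other mouse, and wild mouse 2 lay below laboratory mouse 3. The mean was 2.32-fold higher in wild mice (3.49 ± 0.906 and 8.09 ± 5.82 FPKM, exact permutation p = 0.2, n = 3 each), while the zFPKM difference was -0.10 (SE 0.218, limma adjusted p = 0.829). Without wild mouse 3 the direction turned, to 0.11.

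Set against Inhba in the same mouse, Inhbe stood at 223%, 236% and 158% in laboratory and at 851%, 344% and 869% in wild mice. All mice thus had more FPKM of Inhbe than of Inhba, and every wild ratio was above every laboratory ratio (means of 206% ± 42.0 and 688% ± 298, exact permutation p = 0.1, n = 3 each). Against Inhbc, the other activin chain made mainly in liver, Inhbe was 30.6%, 23.5% and 61.8% in laboratory and 47.3%, 47.4% and 88.5% in wild mice, with overlap.

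Of 17 activin and inhibin pathway genes tested, 1 was called higher and 1 lower in laboratory mice, beside 7.17% and 7.28% of all genes. The median zFPKM difference was 0.012. Both called genes were close to absent. Inha, the alpha chain of the inhibins, was at 0.223, 0.185 and 0.321 FPKM in laboratory mice, at 0 in wild mice 1 and 2 and at 0.0315 FPKM in wild mouse 3 (limma adjusted p = 0.00596). Inhbb, another beta chain, was at 0 to 0.0628 FPKM in laboratory and 0.101 to 0.746 FPKM in wild mice (limma adjusted p = 0.0437). Inha was called in 16 and Inhbb in 6 of the 18 alternatives that tested them. The most abundant gene of the list was Furin, the proprotein convertase, at 33.6 to 38.7 FPKM in laboratory and 75.7 to 87.3 FPKM in wild mice, a zFPKM difference of -0.14 (limma adjusted p = 0.560).

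Gdf15 was a low transcript whose spread lay in the wild mice. It was at 1.75, 2.24 and 2.34 FPKM in the laboratory mice and at 0.894, 2.87 and 7.70 FPKM in the wild mice. Wild mice 1 and 3 lay on either side of the whole laboratory group and differed 8.61-fold. The Cufflinks interval of the deposited FPKM was 0.516 to 1.27 in wild mouse 1 and 6.62 to 8.78 in wild mouse 3. These intervals cover the estimate in each library and not the spread between animals. The group means of 2.11 ± 0.316 and 3.82 ± 3.50 FPKM gave no difference that passed the test (exact permutation p = 0.7, n = 3 each), and zFPKM gave none either (difference 0.13, SE 0.264, limma adjusted p = 0.819). The zFPKM difference turned to -0.28 without wild mouse 1 and was 0.95 with sex as a covariate, against wild mouse 1 alone. Wild mouse 3, the highest in Gdf15 and Inhbe, was also the highest in the summed Kupffer cell markers (109.6 FPKM), and the part of those cells was not tested.

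Genes of the integrated stress response include known inducers of Gdf15. Of 14 tested, 1 was called higher in laboratory mice and none lower, beside 7.17% and 7.28% of all genes. The median zFPKM difference was 0.12. The called gene was Asns, the asparagine synthetase, at 0.684, 0.904 and 2.58 FPKM in laboratory and 0.168, 0.137 and 0.0698 FPKM in wild mice (difference 1.41, limma adjusted p = 0.00712). Asns was called in 15 of the 19 alternatives. Atf5, the most abundant of the list and a factor that stress induces, was at 88.0, 106 and 166 FPKM in laboratory and 229, 299 and 341 FPKM in wild mice (zFPKM difference -0.18, limma adjusted p = 0.325). In wild mouse 3, where Gdf15 was highest, Asns had its lowest value of the 6 mice and Atf5 its highest. Among genes noted after their values were seen, Atf3 (1.56 FPKM), Trib3 (5.13 FPKM), Sesn2 (5.19 FPKM) and Cebpg (9.92 FPKM) were also highest in wild mouse 3. The rest of the tested genes, Atf4, Ddit3, Ddit4, Chac1, Psat1, Cebpb, Trp53 and Mdm2, were highest in another mouse. Atf4 was lower in wild mouse 3 (65.3 FPKM) than in the other wild mice. The Gdf15 receptor gene Gfral was listed at 0 in every mouse, and Ret, its co-receptor, in every mouse but wild mouse 2 (0.00586 FPKM).

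Thpo, the thrombopoietin gene, was expressed at 7.59, 9.24 and 13.6 FPKM in the laboratory mice and at 8.27, 5.64 and 5.85 FPKM in the wild mice. The groups overlapped, through wild mouse 1, and laboratory mouse 3 was the highest. The means were 10.1 ± 3.09 and 6.59 ± 1.46 FPKM, 1.54-fold higher in laboratory mice (log2 difference 0.60, exact permutation p = 0.2, n = 3 each). In zFPKM they did not overlap, with 0.782, 0.791 and 0.655 in laboratory and 0.199, 0.380 and 0.271 in wild mice. That difference of 0.46 (SE 0.193) did not pass the test (limma adjusted p = 0.0943), although it was higher in laboratory mice in all 19 alternatives and called in 7 of them, with adjusted p from 0.00239 to 0.310. Every alternative that was chosen after seeing the data was among those that called Thpo. The rest were quantile normalization, equal medians of zFPKM and the fit without laboratory mouse 3. The fit without laboratory mouse 3 and wild mouse 1 was chosen after seeing the data and called 5676 of 18619 genes. In it the Thpo difference was the same size (0.46) with a limma adjusted p of 0.00802.

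Of 7 tested genes that carry the thrombopoietin signal, 1 was called lower in laboratory mice and none higher. Of all genes, 7.28% were called lower and 7.17% higher. The list's median zFPKM difference was 0.024. The called gene was Stat3, a transcription factor also activated in the hepatic acute phase and the most abundant of the list, at 5.93, 6.46 and 7.23 FPKM in laboratory and 24.4, 36.9 and 30.6 FPKM in wild mice (difference -0.51, limma adjusted p = 0.0242). Stat3 was called in 11 of the 19 alternatives.

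Other hepatokine genes gave the setting for the 9. Of 22 tested, 6 were called higher and 5 lower in laboratory mice, beside 7.17% and 7.28% of all genes. The median zFPKM difference was -0.057. Selenop, the selenium carrier of plasma, was at 113, 190 and 54.9 FPKM in laboratory and 2239, 3016 and 2766 FPKM in wild mice (difference -1.37, limma adjusted p = 6.21e-40). Selenop was called in 18 of the 19 alternatives. Bmp10 and Gpnmb were also lower in laboratory mice, both at low levels, with at most 0.0842 and 0.0283 FPKM there and at most 1.27 and 6.21 FPKM in wild mice. Hamp, which encodes the iron hormone hepcidin, was the most abundant, at 5642 to 14843 FPKM in laboratory and 2833 to 6168 FPKM in wild mice, and its paralogue Hamp2 was at 338 to 493 FPKM and 8.12 to 27.6 FPKM. Hamp and Hamp2 are near-identical copies that can share reads, so the split between them is uncertain.

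**Figure D5:**
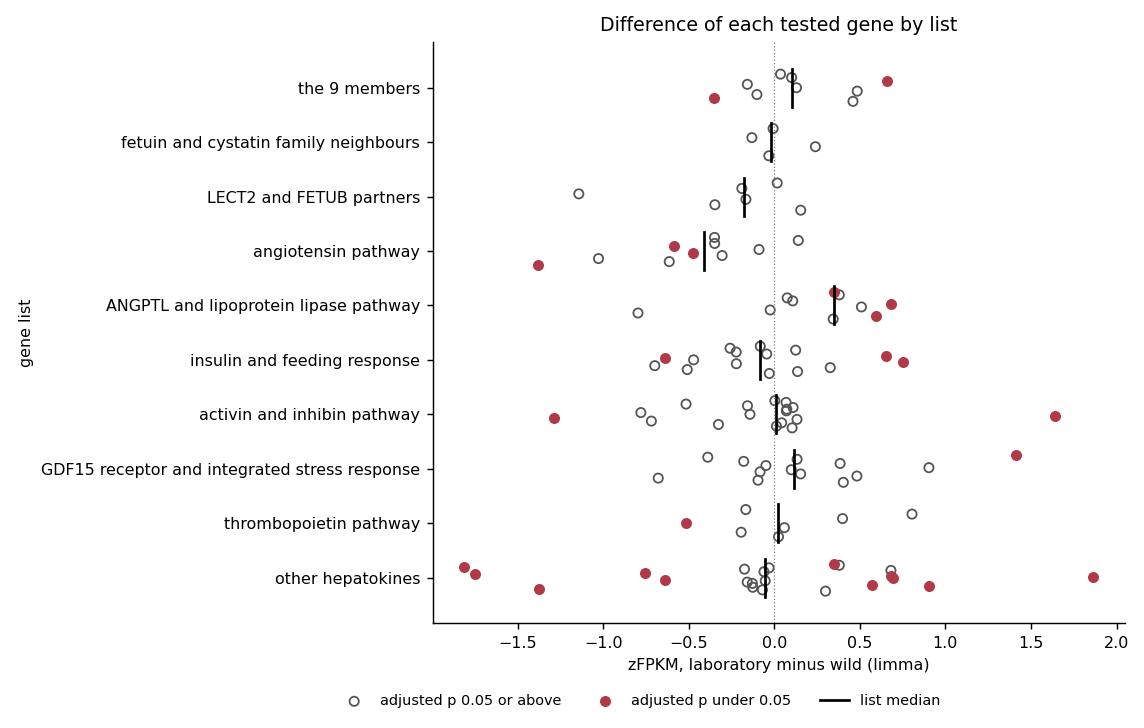
Difference in zFPKM (laboratory minus wild, limma) of every tested gene of the 9 members and of 9 gene lists, with filled points for an adjusted p under 0.05 over all 18619 genes and a bar at each list's median. Among the members Lect2 (-0.35) and Angptl8 (0.66) are filled, and the angiotensin list has the lowest median (-0.41) and the lipoprotein lipase list the highest (0.35).

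The genes most like each member were found by Pearson r of zFPKM over the 6 mice among 6921 or 6922 genes with a mean zFPKM above 0. These values share libraries and, with 6 mice in a pair of groups, describe these mice only. For Angptl8 the closest was Tecr (r = 0.983), an enzyme of very long chain fatty acid elongation and the only gene over 0.95. Inhbe likewise had 1 gene over 0.95, Hectd2os (r = 0.974), and Fetub had 3, led by Slc25a22 (r = 0.974), a mitochondrial glutamate carrier. Lect2 followed a pattern that many genes shared, with 922 genes over 0.95, led by Rabepk and Ssb (r = 0.999 and 0.998). Thpo had 425, led by Rpl17-ps9 and Dhrsx, both at r = 0.998, and Agt 207, led by Apobec1 and Atp13a2, both at 0.996. For Inhba there were 169, led by Mier2 (r = 0.994), for Ahsg 135, led by Tmem258 (r = 0.996), and for Gdf15 75, led by Tmem131l and by Lgals3, a galectin of macrophages (both r = 0.993).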

How the data were processed

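Liver RNA-Seq of 6 mice was used, grouped by the labels. The authors extracted RNA with an AllPrep kit, made stranded mRNA libraries, aligned reads to a masked genome with kalign and calculated FPKM with the Tuxedo pipeline. The deposited FPKM are scaled for transcript length and sequencing depth. The authors turned them into zFPKM, a score, with the R package of that name. The submitters' processing notes name GRCm38 p6. The deposited values are not counts, so the count test in the study's methods (edgeR) was not repeated, and the absolute depth is unknown. Deposited Cufflinks bounds on FPKM, used for 5 mice and not for laboratory mouse 1, are given for Gdf15, and no other interval for counting error was computed.

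Of 47256 names listed once in every mouse, 24 had a failed estimate and were left out (Alb among them), and names listed at several loci were not used. Genes with zFPKM above -3 in at least 3 mice entered the test, lower values being raised to -3, by limma 3.58.1 in R 4.3.3 (lmFit, eBayes with trend, Benjamini-Hochberg adjustment over 18619 genes, adjusted p under 0.05). For single members a two-sided exact permutation test was added (scipy 1.17.1), in which 3 against 3 cannot go below 0.1. With nothing to show that the mice are otherwise matched, p-values concern these 3 and 3 animals only. The limma p-values also rest on a variance moderated by genes of like abundance, and not on the gene's own spread between animals alone. On simulated data for this comparison (18619 genes, 200 shifted by 2 in zFPKM), 84.5% of shifted genes were called, and 5.06% of 178 calls were false. That shift is larger than the difference of any member (0.66 for Angptl8, the largest). The simulated noise was drawn separately for each gene, without the differences in mode and width between the mice. These rates therefore do not carry over to the members.

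The members and gene lists were chosen with earlier results of these data known, and 4 alternatives and the motifs were chosen after seeing the data. Named genes are the members, the most abundant and up to 4 most different called genes of each list, the 2 most alike genes of each member, and genes at 0. Some genes that this rule names are not reported here. Genes that overlap a member, Hrg, Kng2, Insr, Ret, Astl, Atf3, Trib3, Sesn2, Cebpg and the deposited bounds were named outside that rule, after their values were seen. So were the other stress response genes listed beside them, further markers of fat, pancreas, red cells and platelets, and Cyp17a1. Transcript lengths (GENCODE, longest transcript) were found for 88.6% of tested genes. Starts in the files count from 0, so 1 was added, and the members' positions then match RefSeq. Alternatives were log2(FPKM + 0.1), log2(FPKM + 1), quantile normalization, equal medians, a floor of -5, no filter, a filter in all 6 mice, no trend, sex as a covariate, each mouse left out, and removal of the trend with transcript length. With sex as a covariate the difference is that of the laboratory mice from wild mouse 1, the only wild male, and so rests on 1 wild animal.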

Additional observations from a re-analysis of the deposited data

How the results depend on the processing

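The count of genes called moved from 2690 to 8589 with log2(FPKM + 0.1), 8242 with log2(FPKM + 1), 7282 with quantile normalization, 5270 with equal medians, 8817 with log2(FPKM + 0.1) at equal medians, 5676 without laboratory mouse 3 and wild mouse 1, 4958 and 7536 with the length trend removed from zFPKM and from log2(FPKM + 0.1), 1374 with sex as a covariate, 795 without the trend and 23 without a filter (of 47232 genes), and lay between 1420 and 2556 with 1 mouse left out. The count of members called moved from 2 to 6 with quantile normalization, 4 with log2(FPKM + 0.1) at equal medians, 1 with a floor of -5 or with sex as a covariate, and 0 without the trend or the filter, and was 1 to 2 with 1 mouse left out. No paired analysis was made, because the groups are different animals with no pairing between them. Lect2, Angptl8, Thpo, Inhba and Fetub kept their direction in all 19 alternatives.

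The direction of Ahsg reversed with log2(FPKM + 0.1), log2(FPKM + 1) and quantile normalization (-0.47, -0.47 and -0.48, the last called). Agt reversed to -0.63 on both log2 scales, -0.072 with quantile normalization and -0.063 with log2(FPKM + 0.1) less its length trend, and lay between -0.048 (without wild mouse 1) and 0.12 with 1 mouse left out. Gdf15 reversed to -0.37 on both log2 scales and -0.13 without laboratory mouse 3 and wild mouse 1, and lay between -0.28 (without wild mouse 1) and 0.42 with 1 mouse left out. Inhbe reversed to 0.20 with sex as a covariate (against wild mouse 1 alone), and lay between -0.25 and 0.11 (without wild mouse 3) with 1 mouse left out. The cause was not tested. The unknown depth limits what the low members can show.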
